A study of Mus musculus with 12 samples.

Results

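The 34 genes described here encode interferon-induced effector proteins outside the IFIT, OAS, GBP, IRG and Ifi200 families. They were chosen by gene symbol, with earlier results of these data known. All 34 were found among the 55291 symbols of the count table and among the 15674 genes tested. Poly(A) RNA was counted in 12 libraries of mouse bone marrow cells, taken at about 8 weeks of age, kept in culture for about 24 hours and collected as the non-adherent cells, which the labels call progenitors. The 4 groups of 3 libraries are homozygous SCFA, control SCFA, homozygous untreated and control untreated. Homozygous mice carried STAT3C, a constitutively active form of the transcription factor STAT3, behind a floxed stop cassette together with a Cre recombinase, written STAT3Cstopfl/fl CD4Cre in the labels and R26STAT3Cstopfl/fl CD4Cre for homozygous untreated 1. The labels call the other genotype control and do not list its alleles. SCFA mice were given short-chain fatty acids, which gut bacteria make from fibre, in drinking water until they were about 8 weeks old, and untreated mice were not. The CD4 promoter drives Cre mainly in T cells, which are a minority of marrow cells.

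Type I interferons bind the receptor IFNAR on nearly every cell type, and the kinases JAK1 and TYK2 then activate transcription factors of the STAT family. Together with IRF9, STAT proteins form a complex that binds interferon-stimulated response elements in promoters and switches on many genes. The 34 genes fall into 6 roles: sensors of viral nucleic acid and the kinase PKR, the conjugation system of the ubiquitin-like protein ISG15, PARP and Deltex proteins, direct antiviral effectors, nuclear body proteins and transcriptional cofactors, and other interferon-induced proteins. In marrow, interferon acts on stem cells, on monocytes and on the precursors of bone-resorbing osteoclasts.

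Promoter sequences of 4 members are shown. Those of Isg15, Rsad2 and Daxx were chosen with earlier results known, together with that of Usp18, which was not among the promoters listed. That of Ube2l6 was added after its values were seen. Isg15 and Rsad2 passed the test as lower in homozygous than in control marrow under SCFA and did not pass without it. Ube2l6 was lower in both settings, and Daxx passed in neither. Sequences are from RefSeq on the build GRCm38.p6 and run 5′ to 3′ on the gene's strand up to the base before the transcription start. Capitals mark each match, on either strand, to GAAANNGAAA, the core of the interferon-stimulated response element.
Isg15, chr4:156200819-156200968, minus strand: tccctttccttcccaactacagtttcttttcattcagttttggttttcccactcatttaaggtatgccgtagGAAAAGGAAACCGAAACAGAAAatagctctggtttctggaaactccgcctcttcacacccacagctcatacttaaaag
Rsad2, chr12:26456453-26456602, minus strand: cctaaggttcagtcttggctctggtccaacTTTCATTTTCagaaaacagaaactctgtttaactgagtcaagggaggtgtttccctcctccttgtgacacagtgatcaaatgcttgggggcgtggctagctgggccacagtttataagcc
Ube2l6, chr2:84798678-84798827, plus strand: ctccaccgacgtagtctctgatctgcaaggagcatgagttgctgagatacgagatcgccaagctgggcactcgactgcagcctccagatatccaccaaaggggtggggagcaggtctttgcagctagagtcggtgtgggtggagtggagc
Daxx, chr17:33909295-33909413, plus strand: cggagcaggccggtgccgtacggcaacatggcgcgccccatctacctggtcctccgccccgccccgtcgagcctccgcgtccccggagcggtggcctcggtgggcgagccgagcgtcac

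The Isg15 promoter held 3 overlapping matches, whose first bases lay 78, 72 and 66 bases before the transcription start. Rsad2 had 1 match, read on the opposite strand, 120 bases before its start. Ube2l6 and the first of 3 listed Daxx promoters, shown over 119 bases, held none in the stretches printed. Dhx58, Zbp1, Usp18, Parp9, Parp14, Mx1, Mx2, Rtp4 and Ifi27l2a were absent from the set of RefSeq promoters used here. That set held 25 of the 34 members. In the 250 bases before the start, GAAANNGAAA was found in 6 of these 25 (24.0%), namely Isg15, Rsad2, Bst2, Slfn5, Slfn8 and Trim30a, against 3.46% of all 27025 genes with a listed promoter and 2.98% of all 32851 promoters. TTCNNNGAA, the shorter palindrome that single STAT dimers bind, was found in 2 of 25 members (8.0%), Eif2ak2 and Bst2, against 8.13% of all genes. In Bst2 it began 136 bases before the start and overlapped a match of the other motif that began at 130 bases. Another match of that motif began at 124 bases. Both strands were searched, and a match is a description of the letters, not of binding.

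The total count per library was 16954355 to 20748995. Untreated libraries carry the date of day 1 and SCFA libraries that of day 30 of month 3 in their labels, so treatment and date cannot be told apart. Whether each library of a group is a different mouse is not stated, so p-values describe no more than the spread among these 12 libraries. Stat3 itself, counted together with any transcript of the transgene, ranged from 319 to 397 CPM in homozygous SCFA, 223 to 248 CPM in control SCFA, 267 to 322 CPM in homozygous untreated and 274 to 438 CPM in control untreated libraries. It was higher in homozygous marrow under SCFA (0.60 ± 0.15 SE on the log2 scale, adjusted p = 0.0157), and its difference without SCFA was -0.28 ± 0.15 (adjusted p = 0.221). By the same test, Stat3 fell with SCFA in control mice (-0.58 ± 0.15, adjusted p = 0.0192). Its change with SCFA in homozygous mice was 0.31 ± 0.15 (adjusted p = 0.24). The genotype by SCFA interaction, defined below, was 0.88 ± 0.22 for Stat3 (adjusted p = 0.0111). The cells were a mixture: 10 markers of late neutrophils summed to between 30138 and 71188 CPM in the 12 libraries, 9 stem and progenitor markers to between 374 and 666 CPM. In such mixed RNA, fewer cells of a type and less RNA per cell cannot be told apart.

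Without SCFA, the effector genes were higher in homozygous than in control marrow as a group: 25 of 34 rose, 1 fell and 8 did not pass the test, with a median log2 fold change of 1.04 over the 34, against -0.04 over all genes tested. The share of all genes that rose was 6.69% and the share that fell was 8.13% (14.8% in either direction). Of the 34, 17 rose at least 2-fold. The libraries of the 2 genotypes did not overlap for 26 members that were higher and 1 that was lower in homozygous marrow, against 14.7% and 17.6% of all genes. The test was edgeR's quasi-likelihood test over all genes, and a gene is said to have risen or fallen when its Benjamini-Hochberg adjusted p was under 0.05.

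Under SCFA the picture was different. Zbp1 alone rose in homozygous marrow, 11 members fell and 22 did not pass the test, with a median log2 fold change of -0.37 against -0.02 over all genes. Of all genes, 8.89% rose and 8.47% fell (17.4% in either direction). The libraries did not overlap for 2 members that were higher and 18 that were lower in homozygous marrow, against 19.8% and 19.8% of all genes. A total of 4 fell at least 2-fold, namely Rsad2, Ube2l6, Ifi27l2a and Isg15. Of the 25 members that rose without SCFA, 8 fell under SCFA (Ddx58, Usp18, Slfn5, Slfn8, Sp100, Phf11d, Ifi27l2a and Xaf1), where 0.542% of all genes showed this pair of calls. A further 16 rose without SCFA and did not pass under SCFA (5.44% of all genes), and Zbp1 rose in both (0.702% of all genes).

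The interaction, which tests whether the genotype difference under SCFA differs from that without SCFA, was negative and past the threshold for 26 of 34 members, 25 of them by at least 2-fold. Of all genes, 13.6% had a positive and 11.6% a negative interaction that passed (25.1% in either direction). The median interaction was -1.48 on the log2 scale over the members and -0.08 over all genes. No member had a positive interaction that passed in edgeR, while 1 did at an unadjusted p under 0.05, 0 did in DESeq2 and 2 did in limma-voom, namely Daxx and Ifi35. All 26 kept their call in each of the 18 other fits, in which a setting was changed or a library left out.

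In homozygous mice, 30 of 34 members fell with SCFA and 19 of these fell at least 2-fold, with a median log2 fold change of -1.27 against -0.00 over all genes. Of all genes, 5.61% fell and 3.96% rose (9.58% in either direction). No member rose in edgeR, at an unadjusted p under 0.05, in DESeq2 or in limma-voom (0 each), and the highest log2 fold change was -0.24. The libraries did not overlap for 31 members that were lower with SCFA and 0 that were higher, against 16.2% and 13.9% of all genes. In control mice, 8 members rose and 7 fell with SCFA, with a median of 0.27 against 0.04; of all genes, 8.89% rose and 13% fell (21.9% in either direction). Here 12 members were higher and 9 lower without overlap, against 17.7% and 20.8% of all genes. No member that passed changed by as much as 2-fold in control mice, where the largest rise was Parp14 at 0.80 ± 0.14 (SE, adjusted p = 0.0045).

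**Figure D1:**
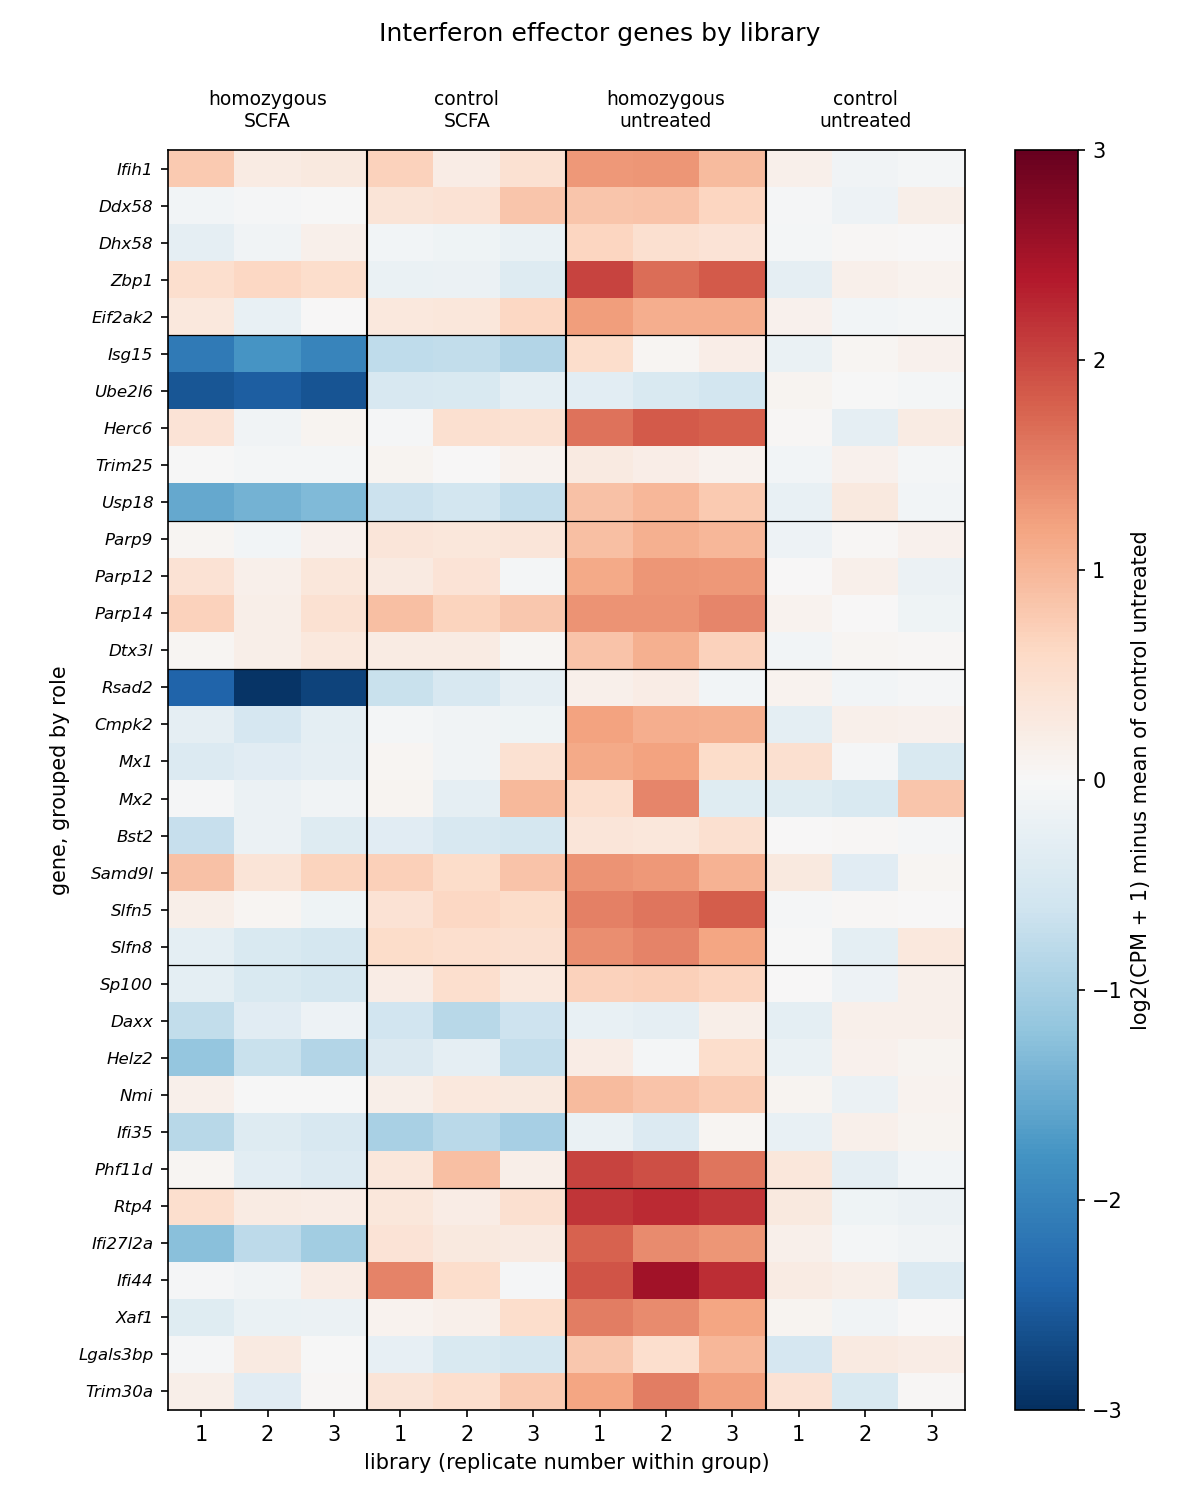
Level of each of the 34 genes (rows, ordered by role) in each of the 12 libraries (columns), as log2(CPM + 1) minus the mean of the 3 control untreated libraries. Most rows are red, or higher, in the 3 homozygous untreated libraries, and Rsad2, Ube2l6, Isg15 and Usp18 are blue, or lower, in the 3 homozygous SCFA libraries.

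Averaged over the 3 libraries of a group, the level was highest in homozygous untreated libraries for 31 members and in control untreated libraries for Ube2l6, Daxx and Ifi35. It was lowest in homozygous SCFA libraries for 16 members, in control SCFA libraries for 6 and in control untreated libraries for 12. As a score per library, the mean over the 34 genes of log2(CPM + 1), set to 0 for control untreated, was -0.32 ± 0.03 in homozygous SCFA, 0.09 ± 0.02 in control SCFA, 0.96 ± 0.06 in homozygous untreated and 0.00 ± 0.03 in control untreated libraries (SD, n = 3 each). The scores of the 4 groups did not overlap, and no test was made on them.

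Per kilobase of exon, Ube2l6 had the highest level averaged over the 12 libraries, at 304 CPM per kb, followed by Ifi27l2a at 260.3, Samd9l at 146, Rtp4 at 87.9 and Rsad2 at 81.1 CPM per kb. The lowest levels were those of Ifi44, Helz2 and Mx2, at 1.66, 1.41 and 0.343 CPM per kb. The order changed with the group: Samd9l was highest in homozygous SCFA libraries, at 140.3 CPM per kb, and Ifi27l2a in homozygous untreated libraries, at 533 CPM per kb.

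**Figure D2:**
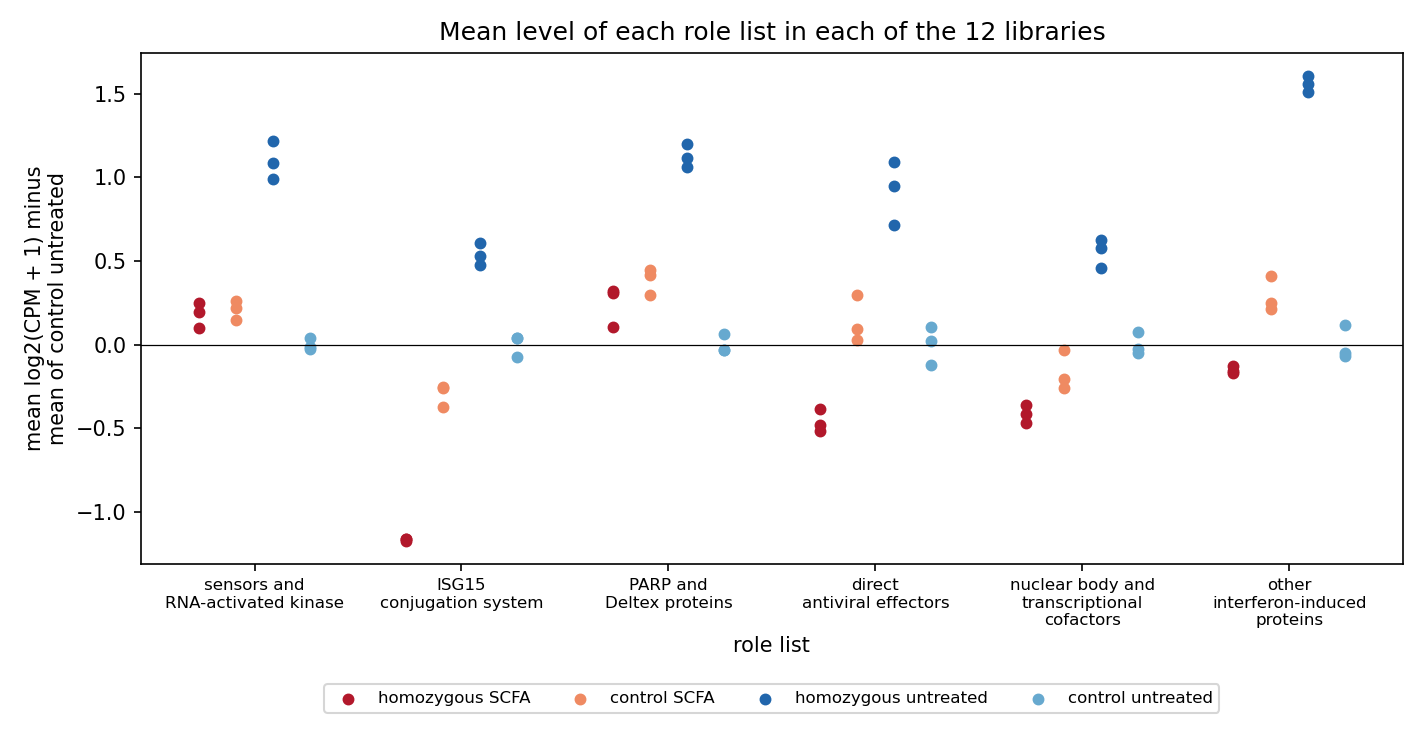
Mean of log2(CPM + 1) over the genes of each of the 6 roles in each library, minus the mean of the control untreated libraries; each point is a library, with 3 per group. Homozygous untreated libraries are the highest in every role, and the ISG15 system is the lowest list in homozygous SCFA libraries, at -1.17 ± 0.00 (SD, n = 3).

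Among the 5 sensors, all rose without SCFA in homozygous marrow, with log2 fold changes of 0.54 to 1.89. Ifih1 (MDA5), Ddx58 (RIG-I) and Dhx58 (LGP2) are helicases that recognise viral RNA, Zbp1 senses nucleic acid in the Z form and can start necroptosis, and Eif2ak2 encodes PKR, a kinase that stops translation when it binds double-stranded RNA. Under SCFA, Ddx58 had 57.5, 60.01 and 60.5 CPM in homozygous libraries and 80.9, 83.5 and 109.6 CPM in control libraries. Without SCFA, Ddx58 had 111, 112 and 96.2 CPM in homozygous libraries and 59.9, 55.5 and 69.3 CPM in control libraries. On average Ddx58 was highest in homozygous untreated libraries, which overlapped control SCFA libraries, and under SCFA every homozygous library lay under every control library. The log2 difference of Ddx58 between genotypes was -0.62 ± 0.14 (SE, adjusted p = 0.0077) under SCFA and 0.79 ± 0.14 (SE, adjusted p = 0.0028) without SCFA, with an interaction of -1.41 ± 0.20 (SE, adjusted p = 0.00057). Under SCFA, Eif2ak2 had 62.5, 42.6 and 50.3 CPM in homozygous libraries and 62.8, 64.01 and 78.04 CPM in control libraries. Without SCFA, Eif2ak2 had 121, 108 and 108 CPM in homozygous libraries and 55.04, 47.5 and 48.2 CPM in control libraries. Eif2ak2 was separated between genotypes without SCFA, and under SCFA its highest homozygous value lay just below the lowest control value. The genotype difference of Eif2ak2 was -0.40 ± 0.15 (SE, adjusted p = 0.0835) under SCFA and 1.16 ± 0.15 (SE, adjusted p = 0.00026) without SCFA, and its interaction was -1.56 ± 0.21 (SE, adjusted p = 0.00046).

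Zbp1 stood apart as the member that rose in both genotype comparisons. Under SCFA, Zbp1 had 33.9, 36.5 and 34.3 CPM in homozygous libraries and 20.3, 20.8 and 17.7 CPM in control libraries. Without SCFA, Zbp1 had 99.6, 77.3 and 87.3 CPM in homozygous libraries and 19.5, 26.3 and 25.4 CPM in control libraries. Homozygous libraries were above control libraries in both settings, and the gap was narrower under SCFA. Its genotype difference was 0.83 ± 0.15 (SE, adjusted p = 0.002) under SCFA and 1.89 ± 0.15 (SE, adjusted p = 3.4e-06) without SCFA, and the interaction was -1.06 ± 0.21 (SE, adjusted p = 0.0042). With SCFA it fell by 1.34 on the log2 scale in homozygous mice (adjusted p = 3.7e-05). Ifih1 and Dhx58 differed between genotypes by -0.01 ± 0.18 and 0.08 ± 0.15 under SCFA (adjusted p = 0.985 and 0.773) and by 1.22 ± 0.18 and 0.54 ± 0.15 without SCFA (adjusted p = 0.00063 and 0.0292). All 5 sensors fell with SCFA in homozygous mice, and 4 had a negative interaction that passed, Dhx58 being the exception at -0.46 ± 0.21 (SE, adjusted p = 0.123). The Dhx58 call without SCFA was lost without control untreated 2 (0.0786), control untreated 3 (0.0829), homozygous untreated 1 (0.0865) or homozygous untreated 2 (0.0585) (adjusted p in brackets), and with no scaling factor (0.108), with no filter on low counts (0.0729) or with only the libraries compared (0.0665). It lost its fall with SCFA in homozygous mice without homozygous untreated 1 (0.0658) or homozygous SCFA 2 (0.0751). The fall of Ifih1 with SCFA in homozygous mice was lost without homozygous untreated 1 (0.0694), homozygous untreated 2 (0.0764), homozygous SCFA 2 (0.0828) or homozygous SCFA 3 (0.0821), and Eif2ak2 passed under SCFA without homozygous SCFA 1 (0.0206) and in limma-voom (0.0134).

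The 5 genes of the ISG15 conjugation system did not share a pattern. ISG15 is attached to other proteins in a chain of reactions in which Ube2l6 (UBCH8) is the conjugating enzyme, Herc6 the main ligase in mice, Trim25 a further ligase, and Usp18 the protease that removes ISG15 and also blocks the interferon receptor. Without SCFA, Herc6 and Usp18 rose in homozygous marrow, Ube2l6 fell, and Isg15 and Trim25 did not pass. Under SCFA, Isg15, Ube2l6 and Usp18 fell. With SCFA, 4 of 5 fell in homozygous mice and 3 of 5 (Isg15, Ube2l6 and Usp18) in control mice.

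Ube2l6 (chromosome 2, 84798828 to 84810335, plus strand), whose promoter above holds no match, was the only member that fell in homozygous marrow with and without SCFA. Under SCFA, Ube2l6 had 153, 164 and 152 CPM in homozygous libraries and 649, 669 and 745 CPM in control libraries. Without SCFA, Ube2l6 had 737, 662 and 621 CPM in homozygous libraries and 967, 898 and 876 CPM in control libraries. The homozygous SCFA libraries lay far below all others, and the genotypes did not overlap in either setting. Its level was 156 ± 7.05 CPM in homozygous SCFA and 687 ± 50.8 CPM in control SCFA libraries (SD, n = 3 each), 4.40-fold lower in homozygous marrow. The log2 fold change was -2.14 ± 0.11 (SE, adjusted p = 7.4e-09) under SCFA and -0.44 ± 0.11 (SE, adjusted p = 0.0157) without SCFA, with an interaction of -1.70 ± 0.15 (SE, adjusted p = 1e-05). Without SCFA the call was lost without homozygous untreated 2 (0.0812) or homozygous untreated 3 (0.0553) and with only the libraries compared (0.0978). Of 10 erythroid markers, 6 fell and 3 rose under SCFA, and 4 fell and 1 rose without SCFA. Of all genes, 8.47% fell and 8.89% rose under SCFA, and 8.13% fell and 6.69% rose without SCFA. The summed level of these erythroid markers had group means in the same order as Ube2l6. It was 2279 to 2681 CPM in homozygous SCFA and 11136 to 13149 CPM in control SCFA libraries. In untreated libraries it was 8268 to 11499 CPM in homozygous and 17413 to 19399.6 CPM in control marrow. The sums of 13 B lineage markers and of 8 plasmacytoid dendritic cell markers, given below, had the same order of groups. The part of these cell types in the result was not tested.

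Isg15 (chromosome 4, 156199424 to 156200818, minus strand), whose promoter has the 3 overlapping matches, fell with SCFA in both genotypes. Under SCFA, Isg15 had 11.3, 14.7 and 12.6 CPM in homozygous libraries and 30.8, 31.1 and 28.1 CPM in control libraries. Without SCFA, Isg15 had 76.3, 54.8 and 60.9 CPM in homozygous libraries and 45.9, 54.6 and 57.98 CPM in control libraries. The 3 homozygous SCFA libraries were the lowest of the 12 and the 3 control SCFA libraries the next lowest, while the untreated genotypes overlapped. The Isg15 difference between genotypes was -1.22 ± 0.16 (SE, adjusted p = 0.00016) under SCFA and 0.28 ± 0.16 (SE, adjusted p = 0.236) without SCFA, and the interaction was -1.50 ± 0.23 (SE, adjusted p = 0.00091). Usp18 differed from it in that it was higher in homozygous marrow without SCFA. Under SCFA, Usp18 had 14.2, 15.5 and 16.3 CPM in homozygous libraries and 26.9, 28.7 and 25.8 CPM in control libraries. Without SCFA, Usp18 had 79.9, 86.2 and 74.96 CPM in homozygous libraries and 36.8, 52.6 and 40.4 CPM in control libraries. The genotypes did not overlap in either setting, and their order was opposite. Usp18 had a genotype difference of -0.83 ± 0.15 (SE, adjusted p = 0.0021) under SCFA and 0.89 ± 0.15 (SE, adjusted p = 0.0016) without SCFA, and an interaction of -1.72 ± 0.21 (SE, adjusted p = 0.0002).

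Herc6 differed between genotypes by -0.19 ± 0.19 (SE, adjusted p = 0.548) under SCFA and by 1.79 ± 0.19 (SE, adjusted p = 4.3e-05) without SCFA, with an interaction of -1.97 ± 0.27 (SE, adjusted p = 0.00042). Trim25 passed in none of the 5 comparisons, and its log2 differences lay between -0.30 for the interaction and 0.20 for genotype without SCFA. In homozygous mice, the falls with SCFA were 4.97-fold for Isg15, 4.31-fold for Ube2l6 and 5.24-fold for Usp18 (adjusted p = 4.7e-07, 2.1e-08 and 1.6e-07). In control mice the falls were 1.76-fold, 1.33-fold and 1.59-fold for the same 3 genes (adjusted p = 0.0063, 0.0162 and 0.0093). The call in control mice was lost for Ube2l6 without control SCFA 1 (0.0602), control SCFA 2 (0.0602) or control SCFA 3 (0.0522) and with only the libraries compared (0.0638), and for Usp18 without control SCFA 3 (0.0511).

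**Figure D3:**
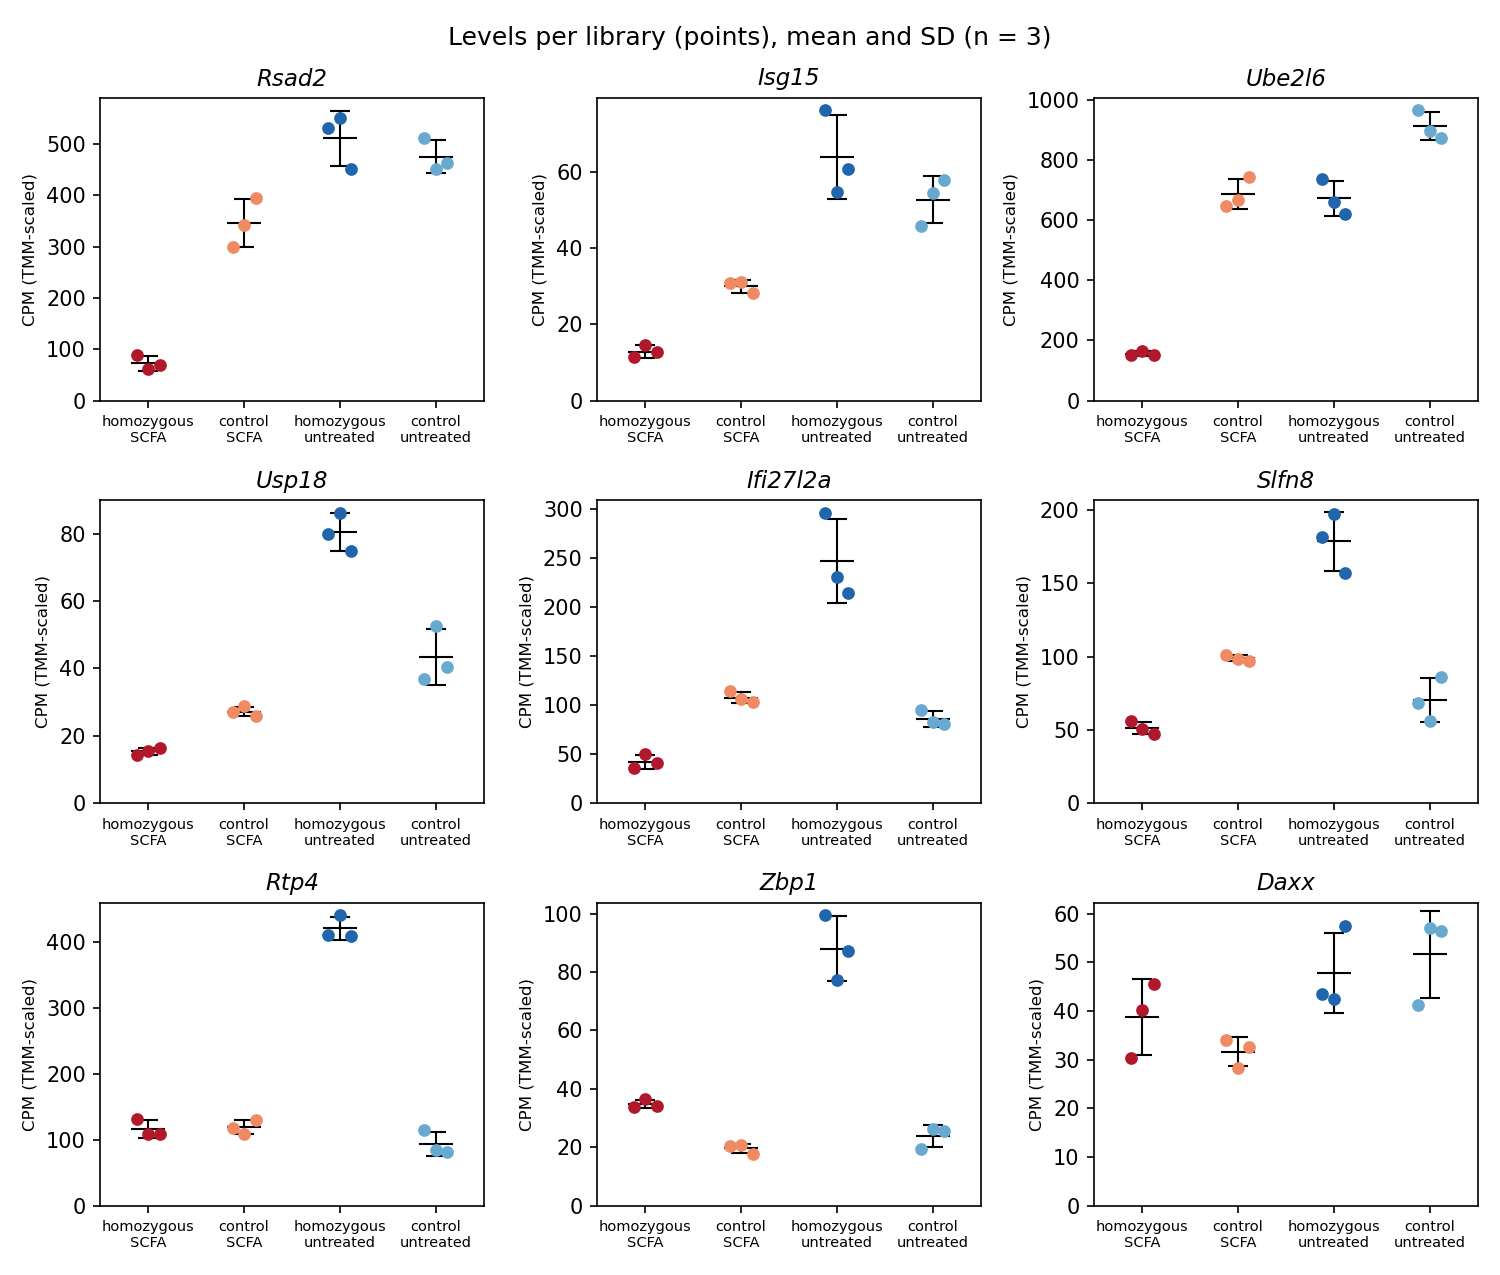
CPM, scaled with TMM factors, of 9 members in each library (points), with the mean and SD of the 3 libraries of a group (bars). Rsad2, Isg15 and Ube2l6 are lowest in homozygous SCFA libraries, and their homozygous untreated libraries overlap (Rsad2, Isg15) or lie below (Ube2l6) control untreated libraries. Usp18, Ifi27l2a, Slfn8, Rtp4 and Zbp1 are highest in homozygous untreated libraries, and the genotypes of Daxx overlap.

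The 4 PARP and Deltex genes rose together in homozygous marrow without SCFA and did not pass under SCFA in edgeR with all libraries. Parp9 and Dtx3l form a complex in which Dtx3l is the ubiquitin ligase, Parp12 is an RNA-binding antiviral mono-ADP-ribosyltransferase, and Parp14 is a macrodomain protein. Under SCFA, Parp14 had 84.9, 59.04 and 72.5 CPM in homozygous libraries and 97.6, 83.9 and 92.1 CPM in control libraries. Without SCFA, Parp14 had 134, 134 and 145 CPM in homozygous libraries and 56.5, 52.4 and 47.96 CPM in control libraries. Homozygous untreated libraries were the highest and control untreated libraries the lowest, and under SCFA the genotypes overlapped. Parp14 had a genotype difference of -0.34 ± 0.14 (SE, adjusted p = 0.107) under SCFA and 1.40 ± 0.14 (SE, adjusted p = 2.6e-05) without SCFA, and an interaction of -1.74 ± 0.20 (SE, adjusted p = 9.3e-05). Under SCFA, Parp9 had 66.1, 60.1 and 70.04 CPM in homozygous libraries and 82.5, 81.3 and 82.4 CPM in control libraries. Without SCFA, Parp9 had 119.6, 134 and 127 CPM in homozygous libraries and 56.9, 64.96 and 69.5 CPM in control libraries. The group means of Parp9 had the same order as those of Parp14, with homozygous SCFA libraries below control SCFA libraries. Its difference was -0.33 ± 0.12 (SE, adjusted p = 0.0676) under SCFA and 0.99 ± 0.12 (SE, adjusted p = 0.00012) without SCFA, and its interaction was -1.32 ± 0.17 (SE, adjusted p = 0.00023).

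Parp12 and Dtx3l had interactions of -1.18 ± 0.21 (SE, adjusted p = 0.0022) and -0.88 ± 0.18 (SE, adjusted p = 0.0045). All 4 genes fell with SCFA in homozygous mice, by 0.69 to 0.96 on the log2 scale. Parp9 passed under SCFA without control untreated 1 (0.0384) and in DESeq2 (0.0198) or in limma-voom (0.0286), and Parp14 without homozygous SCFA 1 (0.0333) and in limma-voom (0.0216). On mm10, Parp9 (chromosome 16, 35938470 to 35972605, plus strand) overlaps Dtx3l (chromosome 16, 35926511 to 35939151, minus strand), and Parp14 lies 55.0 kb from Dtx3l. The strand setting of the counting is not given, so reads in the shared stretch, and those of the antisense gene Gm15564 over Parp9, cannot be assigned with certainty.

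Of the 8 direct antiviral effectors, 5 rose in homozygous marrow without SCFA (Cmpk2, Mx1, Samd9l, Slfn5 and Slfn8), 3 fell under SCFA (Rsad2, Slfn5 and Slfn8), and 7 fell with SCFA in homozygous mice. Rsad2 encodes viperin, which makes a chain-terminating nucleotide, and Cmpk2 a mitochondrial kinase that supplies its nucleotide substrate. Mx1 and Mx2 are dynamin-like GTPases, Bst2 is tetherin, which holds budding virus on the cell surface, Samd9l restricts poxviruses, and Slfn5 and Slfn8 are Schlafen proteins that act in growth control and viral restriction.

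Rsad2 (chromosome 12, 26442746 to 26456452, minus strand) had the largest genotype difference of the 34 under SCFA. Under SCFA, Rsad2 had 88.5, 60.5 and 68.4 CPM in homozygous libraries and 300.3, 343 and 395 CPM in control libraries. Without SCFA, Rsad2 had 532, 551 and 451 CPM in homozygous libraries and 511, 452 and 464 CPM in control libraries. The homozygous SCFA libraries were the lowest of the 12, control SCFA libraries came next, and the untreated genotypes overlapped. Rsad2 averaged 72.5 ± 14.5 CPM in homozygous SCFA and 346 ± 47.4 CPM in control SCFA libraries (SD, n = 3 each), a 4.77-fold lower level. Its log2 difference was -2.26 ± 0.16 (SE, adjusted p = 1.6e-07) under SCFA and 0.10 ± 0.15 (SE, adjusted p = 0.667) without SCFA, and the interaction was -2.36 ± 0.21 (SE, adjusted p = 1.2e-05). In homozygous mice it was 7.05-fold lower with SCFA (adjusted p = 4.8e-08), the largest fall of any member.

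Cmpk2, which lies 12.8 kb from Rsad2 on the opposite strand, had another pattern. Its group means were 50.9 ± 4.50, 60.4 ± 1.49, 143 ± 6.51 and 65.6 ± 10.9 CPM in homozygous SCFA, control SCFA, homozygous untreated and control untreated libraries (SD, n = 3 each). Cmpk2 differed between genotypes by -0.25 ± 0.13 (SE, adjusted p = 0.227) under SCFA and by 1.12 ± 0.13 (SE, adjusted p = 0.00013) without SCFA. The difference between these neighbouring genes was not tested.

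The Schlafen genes changed direction between the settings. Under SCFA, Slfn5 had 75.9, 69.05 and 60.9 CPM in homozygous libraries and 90.2, 102 and 97.95 CPM in control libraries. Without SCFA, Slfn5 had 192, 205 and 235 CPM in homozygous libraries and 64.7, 67.8 and 67.6 CPM in control libraries. Slfn5 was highest in all homozygous untreated libraries, and under SCFA the homozygous libraries lay below the control libraries without overlap. Its genotype difference was -0.50 ± 0.12 (SE, adjusted p = 0.0125) under SCFA and 1.66 ± 0.12 (SE, adjusted p = 1.6e-06) without SCFA, with an interaction of -2.16 ± 0.17 (SE, adjusted p = 4.1e-06). Under SCFA, Slfn8 had 55.99, 50.4 and 47.4 CPM in homozygous libraries and 101, 98.7 and 96.9 CPM in control libraries. Without SCFA, Slfn8 had 182, 197 and 157 CPM in homozygous libraries and 68.5, 55.95 and 85.9 CPM in control libraries. Slfn8 was also highest in the homozygous untreated libraries, and under SCFA its homozygous libraries lay below its control libraries. The Slfn8 difference was -0.95 ± 0.15 (SE, adjusted p = 0.00078) under SCFA and 1.35 ± 0.15 (SE, adjusted p = 7.1e-05) without SCFA, with an interaction of -2.30 ± 0.21 (SE, adjusted p = 1.5e-05). The fall of Slfn5 under SCFA was lost without control SCFA 2 (0.0569) or homozygous SCFA 3 (0.0732). Slfn5 and Slfn8 lie 37.3 kb apart on chromosome 11 on opposite strands, and the Schlafen cluster holds close copies among which reads may have been divided or dropped.

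Samd9l rose without SCFA in homozygous marrow (1.21 ± 0.16 (SE, adjusted p = 0.00036)) and had an interaction of -1.27 ± 0.23 (SE, adjusted p = 0.0026). Its fall with SCFA in homozygous mice (-0.58 ± 0.16 (SE, adjusted p = 0.038)) was lost without control untreated 3 (0.0578), homozygous untreated 1 (0.137), homozygous untreated 2 (0.129), control SCFA 1 (0.0623), control SCFA 2 (0.05), control SCFA 3 (0.0562), homozygous SCFA 2 (0.164) or homozygous SCFA 3 (0.114). Mx1 had a genotype difference of 1.06 ± 0.30 (SE, adjusted p = 0.0319) without SCFA and an interaction of -1.66 ± 0.43 (SE, adjusted p = 0.0133), and the call without SCFA was lost without control untreated 2 (0.111), control untreated 3 (0.115), homozygous untreated 1 (0.0988) or homozygous untreated 2 (0.115) and with only the libraries compared (0.0796). Mx2, annotated as a polymorphic pseudogene and 72.4 kb from Mx1, was the member with the lowest level and passed in none of the 5 comparisons. Under SCFA, Mx2 had 0.751, 0.613 and 0.683 CPM in homozygous libraries and 0.903, 0.490 and 2.55 CPM in control libraries. Without SCFA, Mx2 had 1.57, 4.01 and 0.401 CPM in homozygous libraries and 0.399, 0.322 and 2.20 CPM in control libraries. The 4 groups of Mx2 overlapped. Bst2, which is also a marker of plasmacytoid dendritic cells, fell with SCFA in homozygous mice (-0.83 ± 0.15 (SE, adjusted p = 0.0034)) and differed between genotypes by 0.04 ± 0.15 (SE, adjusted p = 0.881) under SCFA and 0.41 ± 0.15 (SE, adjusted p = 0.0849) without SCFA. Without SCFA, Bst2 passed when homozygous SCFA 1 was left out (0.0452) and in DESeq2 (0.0218) or in limma-voom (0.034). Of the other 8 markers of plasmacytoid dendritic cells, 7 fell in homozygous marrow under SCFA and 3 without SCFA (8.47% and 8.13% of all genes). They summed to 95.7 to 129 CPM in homozygous SCFA, 669.7 to 708 CPM in control SCFA, 312 to 368 CPM in homozygous untreated and 725 to 852 CPM in control untreated libraries, and their part in the result was not tested.

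**Figure D4:**
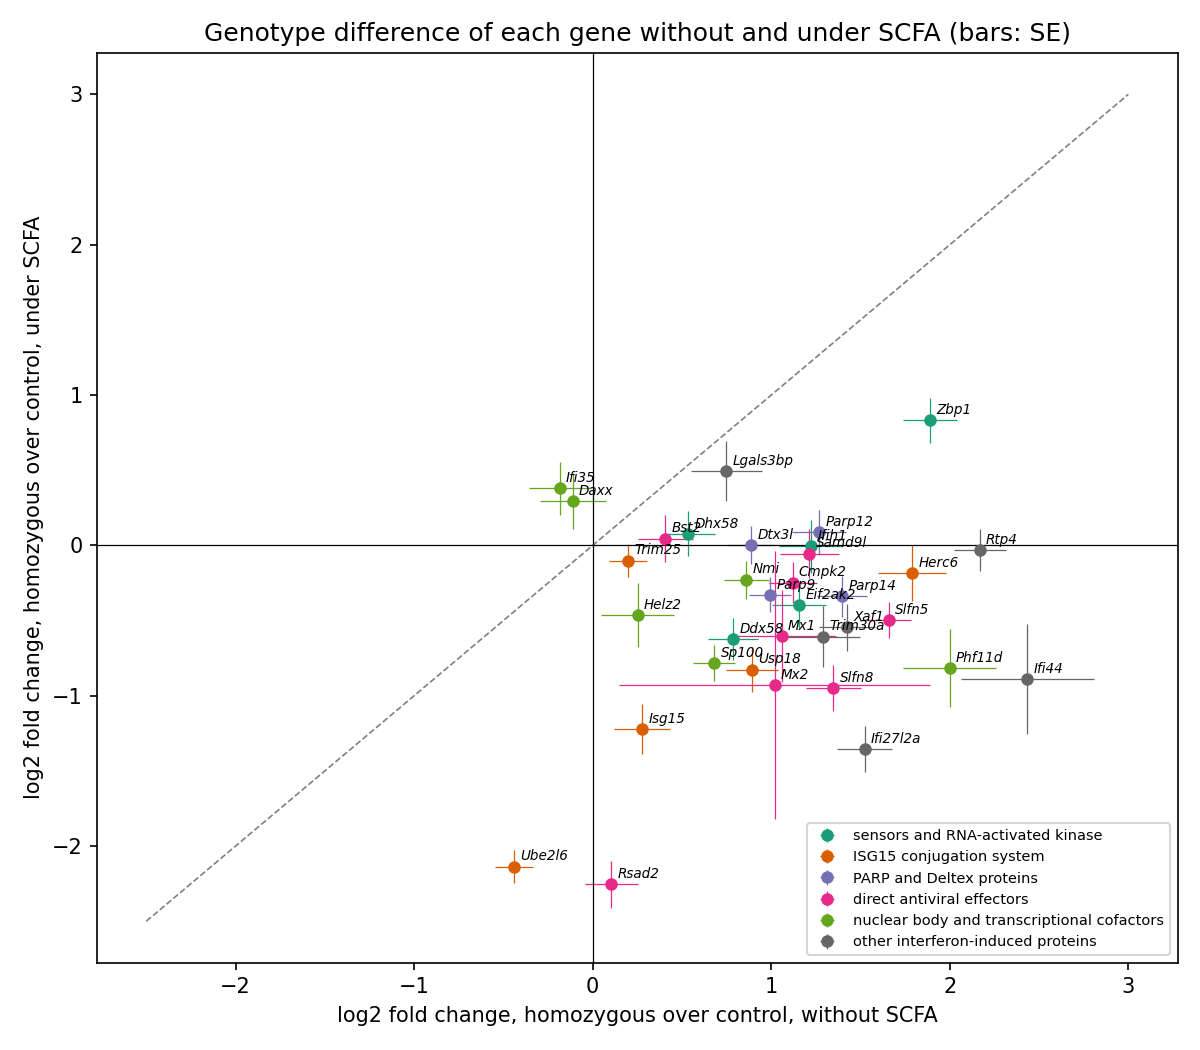
Log2 fold change of homozygous over control marrow for each of the 34 genes, under SCFA (vertical axis) against without SCFA (horizontal axis), with SE bars and colours by role. The dashed line marks equal differences; 26 genes had an interaction below 0 that passed the test, Rsad2 and Ube2l6 lie lowest, and Zbp1 is the highest on the vertical axis.

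Of the 6 nuclear proteins and cofactors, Sp100, Nmi and Phf11d rose in homozygous marrow without SCFA, and Sp100 and Phf11d fell under SCFA. Sp100 and Daxx are parts of PML nuclear bodies, Helz2 is a helicase that acts as a nuclear receptor cofactor, Nmi and Ifi35 bind each other, and Phf11d carries a PHD finger. Under SCFA, Sp100 had 217, 196 and 186 CPM in homozygous libraries and 315, 382 and 332 CPM in control libraries. Without SCFA, Sp100 had 432, 444 and 420.2 CPM in homozygous libraries and 269.7, 241 and 297 CPM in control libraries. The Sp100 libraries of the 2 genotypes did not overlap in either setting, and the order was opposite. Sp100 had a genotype difference of -0.78 ± 0.12 (SE, adjusted p = 0.0005) under SCFA and 0.68 ± 0.12 (SE, adjusted p = 0.0022) without SCFA, and an interaction of -1.46 ± 0.17 (SE, adjusted p = 9.8e-05). Under SCFA, Phf11d had 6.70, 4.95 and 4.56 CPM in homozygous libraries and 8.31, 12.8 and 7.41 CPM in control libraries. Without SCFA, Phf11d had 29.4, 27.2 and 21.6 CPM in homozygous libraries and 8.32, 5.20 and 6.06 CPM in control libraries. Phf11d was highest in the homozygous untreated libraries, and under SCFA every homozygous library lay below every control library. Its difference was -0.82 ± 0.26 (SE, adjusted p = 0.0429) under SCFA and 2.00 ± 0.26 (SE, adjusted p = 0.00024) without SCFA, with an interaction of -2.82 ± 0.37 (SE, adjusted p = 0.00031). The call under SCFA was lost without control untreated 3 (0.0558), homozygous untreated 1 (0.0633), homozygous untreated 2 (0.0643), control SCFA 1 (0.0613), control SCFA 2 (0.204), homozygous SCFA 2 (0.141) or homozygous SCFA 3 (0.151) and with only the libraries compared (0.0641), and Phf11d has near-identical neighbours among which reads may have been divided.

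Nmi had an interaction of -1.09 ± 0.18 (SE, adjusted p = 0.0015). Daxx and Ifi35 were the members whose interaction was above 0, at 0.40 ± 0.26 (SE, adjusted p = 0.273) and 0.56 ± 0.25 (SE, adjusted p = 0.106). Under SCFA, Daxx had 30.3, 40.2 and 45.6 CPM in homozygous libraries and 33.97, 28.2 and 32.6 CPM in control libraries. Without SCFA, Daxx had 43.6, 42.5 and 57.4 CPM in homozygous libraries and 41.3, 57.1 and 56.4 CPM in control libraries. The Daxx genotypes overlapped in both settings, and the 3 control SCFA libraries lay below the 3 control untreated libraries. Under SCFA, Ifi35 had 21.9, 30.3 and 28.02 CPM in homozygous libraries and 19.8, 22.3 and 19.5 CPM in control libraries. Without SCFA, Ifi35 had 34.6, 29.5 and 41.3 CPM in homozygous libraries and 33.6, 44.1 and 42.05 CPM in control libraries. Ifi35 was likewise lower in control SCFA than in control untreated libraries without overlap. With SCFA in control mice, the log2 difference of Daxx was -0.71 ± 0.19 (SE, adjusted p = 0.0173) and that of Ifi35 -0.96 ± 0.18 (SE, adjusted p = 0.0051). Between genotypes, Ifi35 and its partner Nmi differed by 0.38 ± 0.18 and -0.23 ± 0.13 under SCFA and by -0.18 ± 0.17 and 0.86 ± 0.13 without SCFA. The Daxx call was lost without control untreated 2 (0.0514), control untreated 3 (0.0556), control SCFA 2 (0.0673) or control SCFA 3 (0.0658), and the interaction of Ifi35 passed without control untreated 1 (0.0443). Helz2 fell with SCFA in homozygous mice (-1.21 ± 0.21 (SE, adjusted p = 0.0021)) and passed in no other comparison.

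The 6 other interferon-induced proteins all rose in homozygous marrow without SCFA and all fell with SCFA in homozygous mice. Rtp4 is a chaperone of G protein-coupled receptors that also dampens interferon responses, Ifi27l2a is a small mitochondrial protein, Ifi44 is a cytoplasmic protein, Xaf1 promotes apoptosis by opposing XIAP, Lgals3bp is a secreted glycoprotein, and Trim30a restrains NF-kB signalling in mice. Under SCFA, Ifi27l2a had 35.5, 49.5 and 41.00 CPM in homozygous libraries and 114, 106 and 103 CPM in control libraries. Without SCFA, Ifi27l2a had 295, 230.4 and 214 CPM in homozygous libraries and 95.2, 82.3 and 80.1 CPM in control libraries. All 3 homozygous SCFA libraries were below every other library, and all 3 homozygous untreated libraries above every other. Ifi27l2a (chromosome 12, 103442167 to 103443680) averaged 42.00 ± 7.05 CPM in homozygous SCFA and 247 ± 42.98 CPM in homozygous untreated libraries (SD, n = 3 each), 5.87-fold lower with SCFA (adjusted p = 1.1e-07). Its genotype difference was -1.36 ± 0.15 (SE, adjusted p = 3.1e-05) under SCFA and 1.52 ± 0.15 (SE, adjusted p = 2.6e-05) without SCFA, and its interaction was -2.88 ± 0.22 (SE, adjusted p = 2.6e-06), the smallest p of the 34.

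Rtp4 (chromosome 16, 23520291 to 23614222) was raised in one group. Under SCFA, Rtp4 had 131, 109 and 108 CPM in homozygous libraries and 118, 108 and 129 CPM in control libraries. Without SCFA, Rtp4 had 411, 441 and 409.7 CPM in homozygous libraries and 114, 84.6 and 81.8 CPM in control libraries. The 3 homozygous untreated libraries stood far above the other 9, which overlapped one another. Rtp4 was 4.49-fold higher in homozygous marrow without SCFA (log2 2.17 ± 0.15 (SE, adjusted p = 8.2e-07)), differed by -0.03 ± 0.14 (SE, adjusted p = 0.913) under SCFA, and had an interaction of -2.20 ± 0.20 (SE, adjusted p = 1.3e-05). Under SCFA, Xaf1 had 16.2, 18.3 and 18.7 CPM in homozygous libraries and 22.9, 23.9 and 30.99 CPM in control libraries. Without SCFA, Xaf1 had 63.6, 58.2 and 49.8 CPM in homozygous libraries and 22.5, 19.9 and 21.6 CPM in control libraries. Xaf1 was highest in the homozygous untreated libraries and lowest in the homozygous SCFA libraries, with control libraries between them. The Xaf1 difference was -0.55 ± 0.16 (SE, adjusted p = 0.0285) under SCFA and 1.42 ± 0.16 (SE, adjusted p = 6.4e-05) without SCFA, and the interaction was -1.97 ± 0.22 (SE, adjusted p = 9.8e-05). Its call under SCFA was lost without control SCFA 3 (0.135), homozygous SCFA 1 (0.0667), homozygous SCFA 2 (0.0735) or homozygous SCFA 3 (0.0646) and with no filter on low counts (0.074).

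Ifi44 had the largest rise without SCFA, 5.41-fold (log2 2.43 ± 0.37 (SE, adjusted p = 0.0009)), and the most negative interaction, -3.33 ± 0.52 (SE, adjusted p = 0.0011), at a low level. Under SCFA, Ifi44 had 4.18, 3.93 and 5.13 CPM in homozygous libraries and 13.7, 6.56 and 4.15 CPM in control libraries. Without SCFA, Ifi44 had 18.5, 29.1 and 23.4 CPM in homozygous libraries and 5.24, 4.93 and 2.98 CPM in control libraries. Homozygous untreated libraries were the highest 3, and the control SCFA libraries were the most spread. Trim30a rose without SCFA (1.29 ± 0.21 (SE, adjusted p = 0.0013)), had an interaction of -1.90 ± 0.29 (SE, adjusted p = 0.001), and under SCFA was at -0.61 ± 0.20 (SE, adjusted p = 0.0547). It passed under SCFA without control untreated 1 (0.0188), control untreated 2 (0.0211) or homozygous SCFA 1 (0.0499), and also with no scaling factor (0.0333), with no filter on low counts (0.00394), in DESeq2 (0.0289), in limma-voom (0.00555) and with only the libraries compared (0.0194). Ifi44 passed under SCFA without control SCFA 3 (0.0383) or with no filter on low counts (0.0242). Lgals3bp rose without SCFA (0.75 ± 0.20 (SE, adjusted p = 0.0248)) and had no interaction that passed (-0.25 ± 0.28 (SE, adjusted p = 0.54)). Its call without SCFA was lost without homozygous untreated 1 (0.0641) or homozygous untreated 3 (0.073) and with no scaling factor (0.0735) or with only the libraries compared (0.0689). Under SCFA it passed without control untreated 1 (0.0293) and with no filter on low counts (0.0306), in limma-voom (0.0336) or with only the libraries compared (0.0255). Its fall with SCFA in homozygous mice (-0.71 ± 0.20 (SE, adjusted p = 0.0365)) was lost without homozygous untreated 1 (0.0854), homozygous untreated 3 (0.121), control SCFA 2 (0.0527), homozygous SCFA 1 (0.072), homozygous SCFA 2 (0.0595) or homozygous SCFA 3 (0.132) and with no scaling factor (0.0646).

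**Figure D5:**
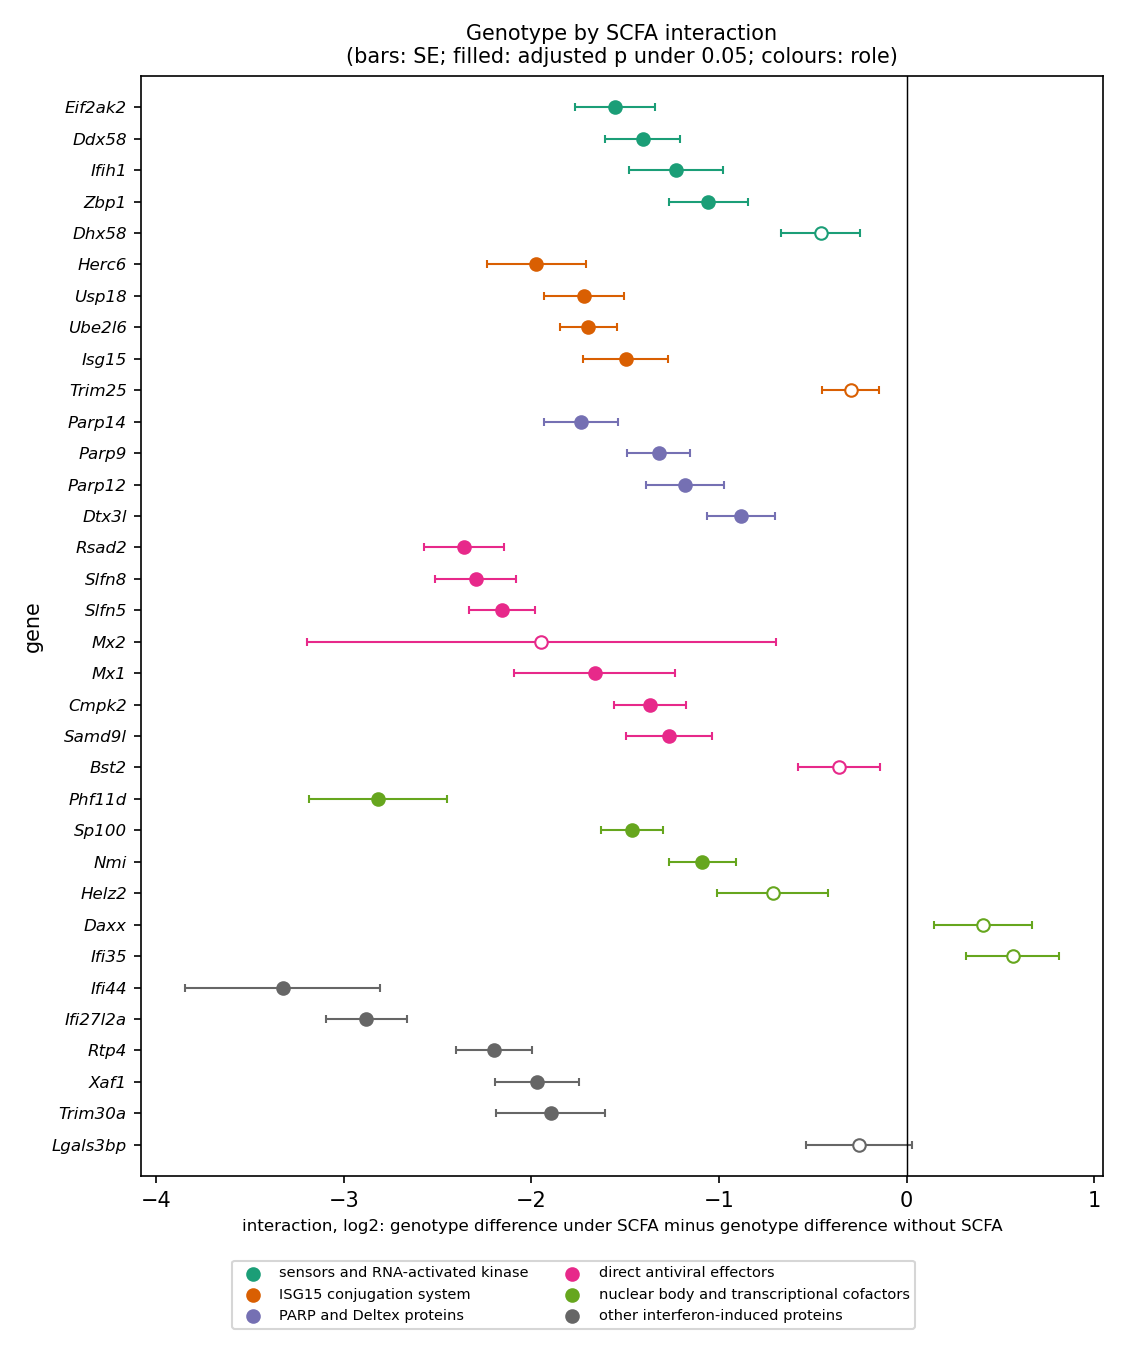
Genotype by SCFA interaction of each of the 34 genes on the log2 scale, the genotype difference under SCFA minus that without SCFA, with SE bars; filled points have an adjusted p under 0.05 and colours give the role. The 26 filled points all lie below 0, between -3.33 for Ifi44 and -0.88 for Dtx3l, and the open points of Daxx and Ifi35 lie above 0.

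With SCFA in control mice the members that passed split in direction. Those that rose were Ddx58, Eif2ak2, Parp9, Parp14, Samd9l, Slfn5, Slfn8 and Sp100, with log2 fold changes of 0.35 (Sp100) to 0.80 (Parp14). Those that fell were Isg15, Ube2l6, Usp18, Rsad2, Bst2, Daxx and Ifi35, with -0.41 (Ube2l6) to -0.96 (Ifi35). In 4 of these 15, the call held in all 19 other fits: Parp14, Slfn5 (0.54 ± 0.12 (SE, adjusted p = 0.0103)), Isg15 and Ifi35. The counts of members leaned on single libraries, and so did the count of all genes called, 3432 with all libraries. That count was 1363 without control untreated 2, 2019 without control untreated 3 and 5269 without control untreated 1. It was 690 without control SCFA 3, 1889 without control SCFA 2 and 2548 without control SCFA 1. It was 2995 without homozygous SCFA 3 and 3231 without homozygous untreated 3. Of the members, 2 rose and 4 fell without control untreated 2, and 5 rose and 4 fell without control untreated 3. Without control untreated 1, 11 rose and 8 fell. Without control SCFA 3, 2 rose and 2 fell, without control SCFA 2, 4 rose and 3 fell, and without control SCFA 1, 4 rose and 4 fell. Without homozygous SCFA 3, which enters only through the shared spread, 5 rose and 5 fell, and without homozygous untreated 3, 5 rose and 6 fell.

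Other genes of the pathway were read from lists fixed by name, 9 in all, which were also chosen with earlier results known. Of the ligands, 21 interferon genes were in the table, none passed the filter on low counts, and 17 had 0 counts in all 12 libraries; a count of 0 allows up to 0.143 to 0.178 CPM per library (3 counts), counting error only. Ifng, the type II interferon, had 0 counts in homozygous SCFA, 18 in control SCFA, 0 in homozygous untreated and 20 in control untreated libraries, summed over 3 each. Ifnb1 had 2 counts, all in homozygous untreated libraries. Of 10 interferon receptors and signal transducers, 3 rose under SCFA and 2 without SCFA, against 8.89% and 6.69% of all genes. The others did not pass.

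Stat2 fell with SCFA in homozygous mice (-1.03 ± 0.17 (SE, adjusted p = 0.0017)), and differed between genotypes by -0.10 ± 0.17 (SE, adjusted p = 0.739) under SCFA and 0.37 ± 0.17 (SE, adjusted p = 0.158) without SCFA. Irf9, the DNA-binding part of the complex, also fell with SCFA in homozygous mice (-0.96 ± 0.11 (SE, adjusted p = 5.3e-05)) and had an interaction of -0.65 ± 0.16 (SE, adjusted p = 0.0103), whose adjusted p was 0.0533 with no filter on low counts. Under SCFA, 2 of 6 interferon regulatory factors rose and 1 fell, against 8.89% and 8.47% of all genes. Without SCFA, 1 of the 6 rose and 1 fell, against 6.69% and 8.13% of all genes. The median interaction of the 6 was 0.62, with 2 positive and 1 negative that passed, the negative one being that of Irf7. Irf7, the factor that amplifies interferon production, had 57.5 ± 1.51, 78.1 ± 4.25, 229 ± 19.1 and 104 ± 14.3 CPM in homozygous SCFA, control SCFA, homozygous untreated and control untreated libraries (SD, n = 3 each). Irf7 fell under SCFA (-0.44 ± 0.12 (SE, adjusted p = 0.0238)), rose without SCFA (1.14 ± 0.12 (SE, adjusted p = 5e-05)) and had an interaction of -1.58 ± 0.17 (SE, adjusted p = 7.7e-05), the same signs as Usp18, Slfn5 and Ifi27l2a. Its call under SCFA was lost without control SCFA 1 (0.0735), control SCFA 2 (0.0772), homozygous SCFA 2 (0.064) or homozygous SCFA 3 (0.0765) and with no filter on low counts (0.0864). Of 5 negative regulators of interferon signalling, 1 rose under SCFA, and 1 rose and 2 fell without SCFA. A positive interaction passed for 2 of them and a negative one for 1, against 13.6% and 11.6% of all genes.

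The 4 neighbouring families showed the same direction without SCFA and different counts under SCFA. Of all genes, 8.89% rose and 8.47% fell under SCFA, and 6.69% rose without SCFA. Of 6 IFIT genes, 3 fell under SCFA and 6 rose without SCFA, and Ifit2 had an interaction of -3.17 ± 0.20 (SE, adjusted p = 5.4e-07). The fall of Ifit3 under SCFA was lost in 5 of 19 other fits and that of Ifit2 in 0. Of 8 OAS genes, 1 fell under SCFA and 6 rose without SCFA, and Oasl2 had an interaction of -2.16 ± 0.17 (SE, adjusted p = 2.6e-06). The fall under SCFA was that of Oas1g, and its call was lost in 15 of 19 other fits. Of 10 guanylate-binding proteins, 3 rose and 1 fell under SCFA and 8 rose without SCFA. Of 9 immunity-related GTPases, 7 rose under SCFA and 9 without SCFA. A negative interaction passed for 6 of 6 IFIT genes and 6 of 8 OAS genes. It also passed for 6 of 10 guanylate-binding proteins and 6 of 9 immunity-related GTPases, against 11.6% of all genes. Among 8 tested targets that respond mainly to interferon-gamma, 4 rose under SCFA and 3 without SCFA. The differences between these lists and the 34 effector genes were not tested.

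Markers of other cell types moved between the same groups. Of all genes, 8.89% rose and 8.47% fell in homozygous marrow under SCFA, and 6.69% rose and 8.13% fell without SCFA. The summed level of 13 B lineage markers was 352 to 403 CPM in homozygous SCFA (Rag1 and Rag2 at 0), 2829.7 to 2905 CPM in control SCFA, 1062 to 1124 CPM in homozygous untreated and 2976 to 3253 CPM in control untreated libraries. All 13 fell in homozygous marrow under SCFA and 12 of 13 without SCFA. Of the 13, 12 had a negative interaction that passed (11.6% of all genes), with a median of -2.12 on the log2 scale over the 13. The 10 monocyte markers summed to 6833 to 7767 CPM in homozygous SCFA, 5365 to 6059 CPM in control SCFA, 7043 to 7579 CPM in homozygous untreated and 4119 to 4898 CPM in control untreated libraries, with 3 rising in homozygous marrow under SCFA and 7 without SCFA. Of 10 T cell markers, of the lineage in which Cre acts, 4 fell and 0 rose under SCFA, and 3 fell and 0 rose without SCFA. The list was split under SCFA: 5 of the 10 were above 0, with a median log2 fold change of 0.07. There 4 were higher and 4 lower without overlap of libraries. Without SCFA the median was -0.50. The 10 markers summed to 72.8 to 79.8, 218 to 293, 131 to 166 and 212 to 259 CPM in the same order of groups. Late neutrophil markers summed to 55554 to 66602 CPM in homozygous SCFA, 54217 to 59078 CPM in control SCFA, 51252 to 71188 CPM in homozygous untreated and 30138 to 50315 CPM in control untreated libraries. The part of these cell types in the levels of the 34 genes was not tested.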

How the data were processed

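Poly(A) RNA was counted in 12 libraries, which form 4 groups of 3. RNA came from the non-adherent part of marrow cells cultured for about 24 hours and was made into low-input poly(A) libraries, per the labels' protocols. Per the submitters' processing notes, alignment to mm10 used STAR and gene counting used featureCounts. For both tools the version, and for the counting the annotation and strandedness, were not given in the sources used here. What the authors deposited is raw counts, whole numbers for every gene symbol in every library, without normalization. Coordinates were taken from the GENCODE annotation of mm10. Reads of overlapping genes on opposite strands may therefore be mixed, and those of near-identical copies (Phf11d, Slfn8, Trim30a, Ifi27l2a, Mx1 and Mx2) may have been divided or dropped.

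A single model of 4 group means was fitted to all 12 libraries with edgeR 4.0.16 (R 4.3.3), after filterByExpr by group had left 15674 genes and TMM factors had been computed. Contrasts were tested with its quasi-likelihood F test. Adjusted p-values are Benjamini-Hochberg over all genes tested. CPM values are TMM-scaled, and per-kilobase values divide them by the union of exons. Scores average log2(CPM + 1). Totals of 16954355 to 20748995 counts set the depth. Each replicate was counted as 1 sample, since pairs of replicates gave chi-square values of 12.1 to 91.4 per degree of freedom. Same-numbered libraries were checked for pairing: their deviations from group means correlated between -0.114 and 0.043, so the numbers were not treated as pairs.

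The members, lists, tests and the rule for giving a gene's value in every library were chosen with earlier results of these data known. The rule takes 2 members per role with the smallest interaction p, the members with opposite calls between genotypes, and any member that fails the filter (none did). Isg15, Zbp1, Mx2, Daxx, Ifi35 and Ifi44 were added after their values were seen, and so was the promoter of Ube2l6. Promoters of 25 members were listed in the RefSeq table used here, and that of Daxx was cut by 31 bases where it ran into the annotated gene.

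The procedure was tested on simulated data (15674 genes, 200 changed). For genotype without SCFA it called 41 of 100 genes set to differ 2-fold and 68 of 100 set to differ 4-fold, and 2 of its 111 calls were false. For the interaction it called 13 of 100 and 58 of 100, and 6 of 77 calls were false. Alternatives were DESeq2 1.42.0, limma-voom (limma 3.58.1) with quality weights, RLE factors, no scaling factor, no low-count filter, only the libraries compared, the replicate number as a block, and each library left out in turn. Tables and plots were made in Python 3.11.15 with pandas 2.3.3 and matplotlib 3.10.9.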

Additional observations from a re-analysis of the deposited data

Results flagged for a closer look

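For 26 of the 34 genes the genotype difference under SCFA differed from the genotype difference without SCFA by edgeR's interaction test. Each of the 26 interactions was negative on the log2 scale. Of all genes, 11.6% had a negative and 13.6% a positive interaction that passed. SCFA and untreated groups differ in date as well as in treatment, while the 2 genotypes of a treatment share a date. The part of SCFA in these differences therefore cannot be told apart from that of the date. Among the sensors, the interaction was -1.56 for Eif2ak2, -1.41 for Ddx58, -1.06 for Zbp1 and -1.23 for Ifih1. In the ISG15 system, the interaction was -1.70 for Ube2l6, -1.72 for Usp18, -1.97 for Herc6 and -1.50 for Isg15. Among the PARP and Deltex genes, the interaction was -1.74 for Parp14, -1.32 for Parp9, -1.18 for Parp12 and -0.88 for Dtx3l. Among the direct antiviral effectors, the interaction was -2.16 for Slfn5, -2.36 for Rsad2, -2.30 for Slfn8, -1.37 for Cmpk2, -1.27 for Samd9l and -1.66 for Mx1. Among the nuclear proteins and cofactors, the interaction was -1.46 for Sp100, -2.82 for Phf11d and -1.09 for Nmi. Among the other interferon-induced proteins, the interaction was -2.88 for Ifi27l2a, -2.20 for Rtp4, -1.97 for Xaf1, -1.90 for Trim30a and -3.33 for Ifi44. All 26 had an adjusted p under 0.05 in each of the other fits tried. By the calls in the 2 genotype comparisons, 8 of them fell under SCFA and rose without SCFA (0.542% of all genes). Ube2l6 fell in both (1.98% of all genes).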

How the results depend on the processing

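All 26 members with a negative interaction kept that call in the 18 other fits, and none of the 34 genes changed the direction of a call in any of the fits run. For genotype without SCFA, 22 of 26 members kept their call in all 19 other fits, for genotype under SCFA 9 of 12, for SCFA in homozygous mice 26 of 30 and for SCFA in control mice 4 of 15. Counts that moved by over 1.5 times are given next, each beside the count from edgeR's TMM fit on all libraries.

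For genotype without SCFA, 2323 genes of all tested were called, against 3922 in limma-voom and 827 with only the libraries compared, where no member fell (0, against 1). For genotype under SCFA the count was 2722, against 4762 in limma-voom, and 1 member rose, against 2 with no filter on low counts, in limma-voom and with only the libraries compared. For SCFA in homozygous mice it was 1501, against 2276 in DESeq2 and 2988 in limma-voom. For SCFA in control mice it was 3432, against 1844 with only the libraries compared, where 3 members rose and 4 fell, against 8 and 7; with no scaling factor 4 rose. For the interaction no member rose, against 2 in limma-voom. Leaving out 1 library gave 823 to 4454 genes for genotype without SCFA, 1453 to 3351 for genotype under SCFA, 758 to 2092 for SCFA in homozygous mice, 690 to 5269 for SCFA in control mice and 2540 to 5538 for the interaction. Members that rose numbered 22 to 26, 1 to 2, 0 to 0, 2 to 11 and 0 to 1 in these comparisons, and members that fell 0 to 1, 8 to 13, 26 to 30, 2 to 8 and 26 to 26. The lowest and highest counts of genes for genotype without SCFA came without homozygous untreated 2 and without control untreated 1. The cause was not tested.

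With no scaling factor the median log2 fold change of all genes was -0.18 for genotype without SCFA (-0.04 with TMM), -0.07 for SCFA in control mice (0.04 with TMM) and 0.05 for the interaction (-0.08 with TMM). The share of calls that were higher was then 23.2%, 27.4% and 64.3%, against 45.1%, 40.6% and 54.0% with TMM. With the replicate number as a block, 2067, 2447, 1282, 3249 and 3715 genes were called in the 5 comparisons in the order above, 25, 1, 0, 8 and 0 members rose and 1, 11, 29, 5 and 26 fell. The fall of Lgals3bp with SCFA in homozygous mice was lost there (adjusted p = 0.0556). The numbers do not pair the libraries. Low counts limit the precision for Mx2, Mx1 and Ifi44, and 2-fold interactions were recovered in 13 of 100 genes in the test on simulated counts.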

Other observations

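The 6 members with a GAAANNGAAA match in the 250 bases before the start had a median log2 fold change of -0.78 between genotypes under SCFA and 0.85 without SCFA, with a median interaction of -2.03. The 19 listed members without a match had medians of -0.23 and 0.89, with a median interaction of -1.27. Under SCFA, 4 of the 6 and 5 of the 19 fell, against 8.47% of all genes. Without SCFA, 3 of the 6 and 14 of the 19 rose, against 6.69% of all genes. Since the members were chosen with results known, no test was made on this division.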
